A study of Mus musculus with 23 samples.

Results

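Microglia are the resident macrophages of the brain. A set of 33 genes that mark them or belong to the complement system was followed in the hippocampus of anemic mouse pups. The genes were chosen by name, with earlier results of these data known. All 33 were found among the 24421 rows of the count table, and all 33 were among the 15475 genes that passed the filter on low counts. They fall into 5 roles: complement (6 genes), receptors of the resting state (9), phagocytic receptors and their signalling (9), lysosome and pore (5), and transcription factors and secreted proteins (4).

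Polyadenylated RNA came from pups on postnatal day 14. Phlebotomy-induced anemia was severe (sPIA, target hematocrit 18%) or moderate (mPIA, 25%), and non-bled controls (NBC) had only a needle prick. Bleeding began on day 3 with draws of 5.25 µl per g, 2 times daily until the target was reached, and went on at 3.5 µl per g daily. There were 4 libraries of sPIA females, 4 of mPIA females, 4 of NBC females, 4 of sPIA males, 4 of mPIA males and 3 of NBC males, numbered 2, 3 and 4, each group labelled only by sex and anemia level, with no strain or litter stated. The RNA is from whole tissue, so fewer microglia and less RNA per microglial cell cannot be told apart.

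Microglia survive on signals through the receptor encoded by Csf1r and survey the tissue with fine processes, guided by P2ry12 and by fractalkine, the neuronal ligand of Cx3cr1. In the postnatal hippocampus they clear dying cells and surplus synapses. The classical complement cascade can tag such synapses: C1q, built from the products of C1qa, C1qb and C1qc, starts it, C4 and C3 are cleaved and deposited, and the receptor CR3, whose alpha chain is Itgam, lets microglia take up what was tagged. Engulfed matter is broken down in lysosomes by cathepsins such as those encoded by Ctss and Ctsc.

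Promoter windows of called members are printed first, since genes of a common cell type may share short motifs there. They are RefSeq windows (build GRCm38.p6) of 250 bases before to 50 bases after the annotated start, on the gene's own strand. Capitals mark GAGGAA, a core of the box bound by PU.1, the product of Spi1, on either strand, so TTCCTC is the same motif on the other strand. The windows of Ctss (chr3:95526536-95526835, plus strand) and Ctsc (chr7:88277835-88278134, plus strand) hold 2 matches each, and those of Mpeg1 (chr19:12460520-12460819, plus strand) and C3 (chr17:57228087-57228386, minus strand) hold 0.
Ctss: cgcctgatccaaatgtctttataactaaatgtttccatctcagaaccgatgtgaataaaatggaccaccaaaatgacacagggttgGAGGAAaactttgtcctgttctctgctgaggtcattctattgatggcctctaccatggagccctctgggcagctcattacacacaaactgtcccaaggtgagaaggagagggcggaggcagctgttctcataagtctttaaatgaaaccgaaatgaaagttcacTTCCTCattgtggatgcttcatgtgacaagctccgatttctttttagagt
Ctsc: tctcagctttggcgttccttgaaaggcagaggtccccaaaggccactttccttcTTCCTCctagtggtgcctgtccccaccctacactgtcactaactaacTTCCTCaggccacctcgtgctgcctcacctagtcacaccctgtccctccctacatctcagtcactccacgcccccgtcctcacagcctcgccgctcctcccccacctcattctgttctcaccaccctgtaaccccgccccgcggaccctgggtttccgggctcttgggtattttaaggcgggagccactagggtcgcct
Mpeg1: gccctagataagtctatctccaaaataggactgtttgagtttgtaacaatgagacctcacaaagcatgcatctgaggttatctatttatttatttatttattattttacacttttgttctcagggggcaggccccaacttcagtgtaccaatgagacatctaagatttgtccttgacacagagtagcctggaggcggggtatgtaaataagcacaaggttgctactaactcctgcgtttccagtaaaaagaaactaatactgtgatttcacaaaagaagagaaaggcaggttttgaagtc
C3: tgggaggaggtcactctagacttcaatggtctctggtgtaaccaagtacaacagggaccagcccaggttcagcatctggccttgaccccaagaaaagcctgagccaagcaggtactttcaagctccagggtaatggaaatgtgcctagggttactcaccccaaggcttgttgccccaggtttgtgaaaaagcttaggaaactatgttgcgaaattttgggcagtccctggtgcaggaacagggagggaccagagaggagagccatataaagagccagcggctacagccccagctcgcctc
The table held 25 of the 33 members in 29 windows. The motif was in 17 of the 29 windows, beside 28.3% of all 32851 windows of this length. A match is a run of letters, not a site shown to be bound. Gpr34, also called, is named only.

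Levels between genes are compared as CPM (counts scaled to a common library size with TMM factors) per kilobase of exon, averaged over the 23 libraries. P2ry12 was highest at 30.6 CPM per kb, followed by Ctss at 23.6, C1qb at 23, C1qa at 22.5, Csf1r at 17.7, Tyrobp at 15.3 and Cx3cr1 at 14.1 CPM per kb. The transcription factor genes Spi1 (0.841) and Irf8 (0.501) lay near the bottom, and C3 was lowest at 0.0986 CPM per kb. Each library held only 3 to 45 counts of C3. Csf1r ranged over 81.2 to 142 CPM and P2ry12 over 64.8 to 104 CPM, so microglial RNA was seen in all 23 libraries. P2ry12 and P2ry13 lie within Med12l on the opposite strand (mean 65.3 CPM), and with the strand setting not stated their reads cannot be told apart.

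**Figure D1:**
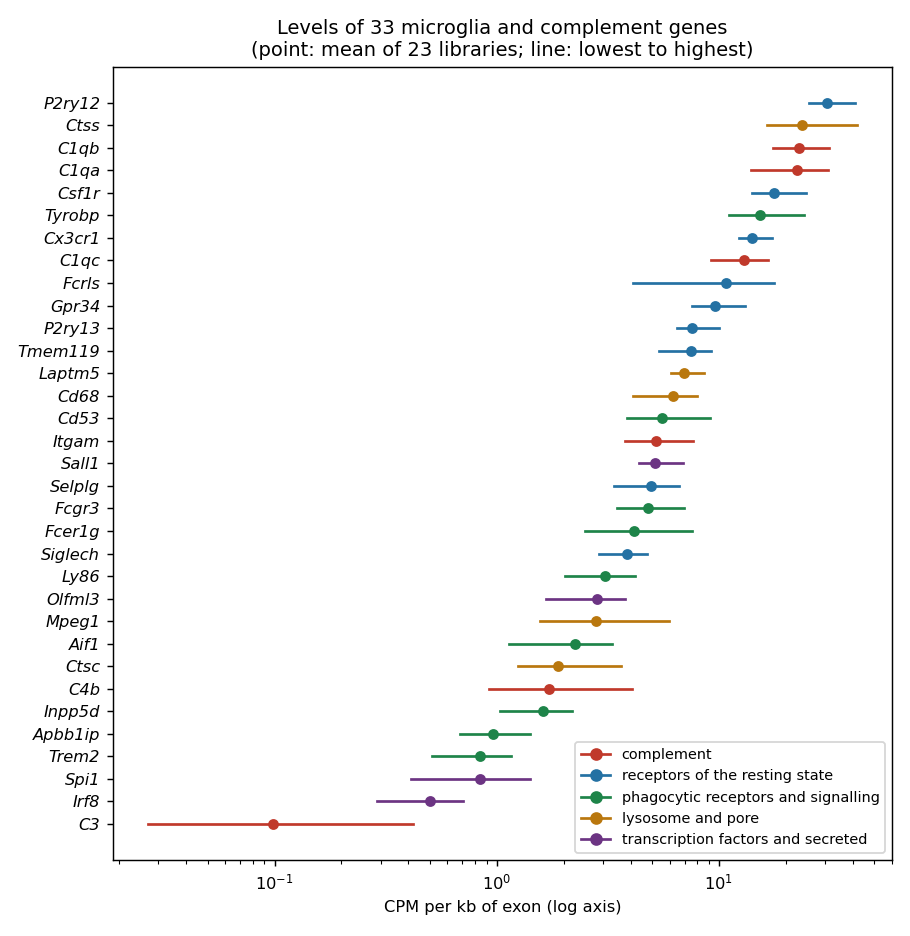
Level of each of the 33 genes in CPM per kb of exon on a log axis, as the mean of 23 libraries with the lowest and highest library, coloured by role. P2ry12 leads at 30.6 CPM per kb, and C3 is lowest at 0.0986 CPM per kb.

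Other cell types and libraries that stand apart are given here, before the results. sPIA female 1 was the highest of all 23 libraries for 11 of the 33 members and the highest of its own group for 25. The members summed to 880 CPM there, against 592 to 772 CPM in the other libraries, and its 8 oligodendrocyte markers summed to 6750 CPM, also the highest. Choroid plexus markers summed to 1420 CPM in sPIA female 2 and 23.1 to 136 CPM in the other sPIA females, to 2124 CPM in NBC female 2 and 43.2 to 64.7 CPM in the other NBC females, and to 20.5, 2650 and 4710 CPM in NBC males 2, 3 and 4. Meningeal fibroblast markers summed to 239, 710 and 607 CPM in those NBC males. Of 16 blood leukocyte markers 2 passed the count filter, Cd3g and Nkg7 were at 0 in all libraries, and no marker exceeded 1.31 CPM. Their sum was 1.12 to 2.76 CPM in sPIA females and 0.866 to 1.65 CPM in NBC females. Levels were also related to the GC content of genes, with Spearman's rho over genes (not independent replicates) of -0.44 to 0.033 in sPIA females and 0.18 to 0.55 in NBC females. The library codes in the labels, whose meaning is not stated, begin with P in all sPIA libraries and in NBC males, with M in mPIA males and with a digit in mPIA and NBC females. Kind of code and group therefore cannot be told apart in sPIA against NBC females, mPIA against NBC males, sPIA against mPIA in either sex or NBC females against males. The same holds for the differences between the sexes in the effect of sPIA and of mPIA. S numbers in the same labels, of unstated meaning, were lower in all sPIA libraries than in all others. S number and group therefore cannot be told apart in any comparison of sPIA with NBC or mPIA, sPIA against NBC males among them. Libraries held 15234793 to 26355712 counts, and mPIA female 3 held 44362539.

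**Figure D2:**
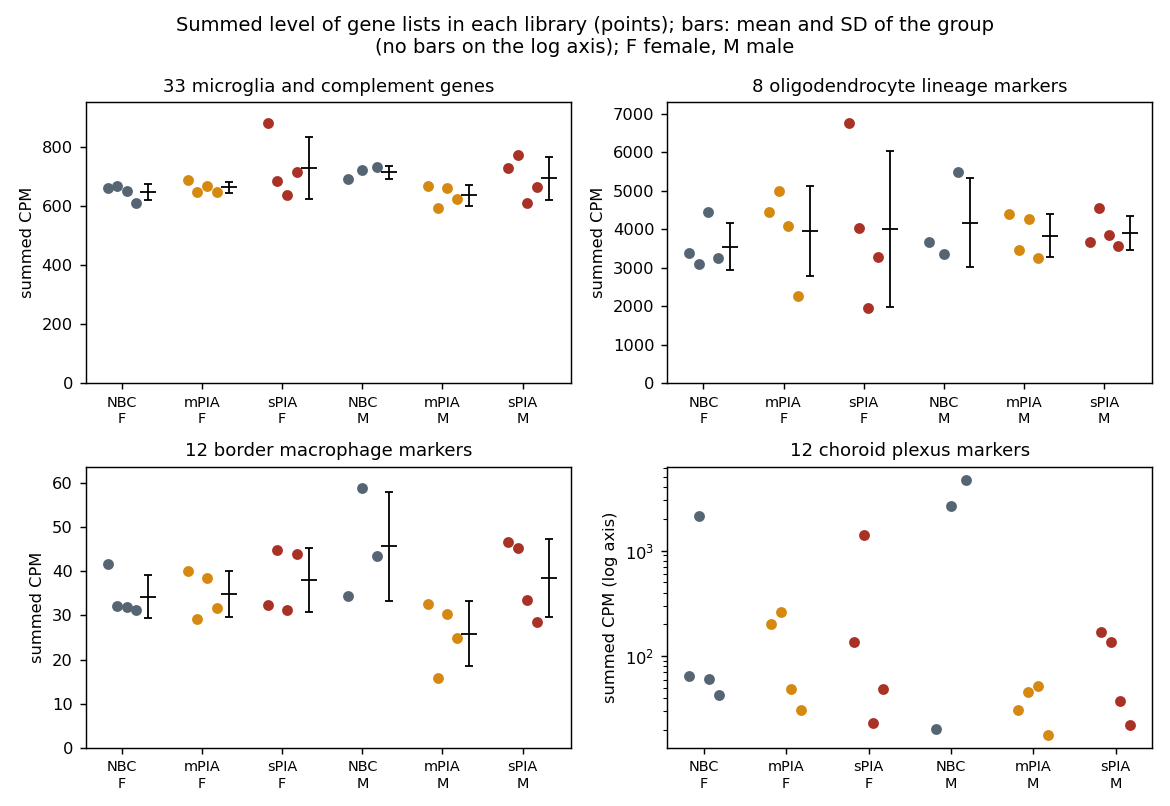
Summed level in CPM of the 33 members, of 8 oligodendrocyte, 12 border macrophage and 12 choroid plexus markers (the last on a log axis) in each library, by group, with the group's mean and SD. sPIA female 1 is highest for the members (880 CPM) and for the oligodendrocyte markers (6750 CPM), and choroid plexus sums run from 17.9 to 4710 CPM.

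The first question is whether these genes change in females with severe anemia. Of the 33 members, 5 rose and 0 fell: C3, the lysosomal protease genes Ctss and Ctsc, the receptor gene Gpr34, and Mpeg1, which encodes the pore protein perforin-2. Over all genes 16% were called, 8.12% higher and 7.86% lower, so a count of 5 in 33 is close to the background. A call is an adjusted p under 0.05 in edgeR's quasi-likelihood test, with Benjamini-Hochberg adjustment over all genes tested. The median log2 change was 0.12, with 23 of 33 positive, and 0.00 over all genes. By role, 3 of 5 lysosome and pore genes, 1 of 6 complement genes and 1 of 9 resting-state receptors rose, and 0 of 9 phagocytic genes and 0 of 4 transcription factors and secreted proteins passed. Groups did not overlap for 4 members, Ctss, Ctsc, Gpr34 and Mpeg1, all higher, beside 21% of all genes.

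C3, the central complement component, lay at 0.355, 0.485, 0.325 and 0.195 CPM in NBC, 0.245, 0.457, 0.417 and 0.181 CPM in mPIA and 1.06, 2.17, 0.793 and 0.281 CPM in sPIA females. Of the sPIA females 3 lay above all NBC females, and sPIA female 4 lay among them. The difference from NBC was 1.64 (SE 0.57, adjusted p = 0.0479) on the log2 scale, with a 95% interval of 0.47 to 2.81. Of 8 fits that each left out 1 NBC or sPIA female, 7 lost the call, all but the fit without sPIA female 4. Without sPIA female 2, the library with 45 counts, the difference was 1.05 (adjusted p = 0.256). That library also had the highest choroid plexus sum of the sPIA females, and meningeal fibroblast markers summed to 492 CPM there, against 171 to 253 CPM in the other sPIA females. With the choroid plexus level as a covariate C3 stood at 1.53 (adjusted p = 0.0436).

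C1qa, the first of the chains of C1q, lay at 22.6, 22, 19.5 and 14.5 CPM in NBC, 22.3, 21.8, 23.4 and 19 CPM in mPIA and 32.3, 22, 18.5 and 21.3 CPM in sPIA females. Only sPIA female 1 lay above the NBC range (log2 change 0.26, SE 0.14, adjusted p = 0.238, and 0.07 without that library). C1qb lay at 26.3, 27.3, 25.2 and 19.7 CPM in NBC, 27.4, 29, 24.9 and 23.3 CPM in mPIA and 34, 26.7, 19.9 and 23.6 CPM in sPIA females (log2 change 0.08, adjusted p = 0.759, and -0.07 without sPIA female 1). C1qc lay at 26.2, 28.2, 26.1 and 25.1 CPM in NBC, 28.2, 27.2, 25.7 and 24.2 CPM in mPIA and 32.1, 23.7, 18.3 and 22.3 CPM in sPIA females (log2 change -0.13, adjusted p = 0.513). For C1qc, sPIA female 1 lay above all NBC females and the other 3 sPIA females below all of them.

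C4b, which encodes complement component 4, lay at 10.8, 5.23, 7.09 and 10.48 CPM in NBC, 10.1, 9.14, 11 and 5.86 CPM in mPIA and 23.2, 6.52, 9.94 and 10.2 CPM in sPIA females. The high value was again that of sPIA female 1, and the other values overlapped (log2 change 0.57, SE 0.40, adjusted p = 0.381, and 0.09 without it). C4b has a near-identical copy, C4a, at a mean of 2.18 CPM, and how shared reads were split is not stated. Itgam averaged 26.4 ± 7.8 CPM in sPIA females and 25.1 ± 2.9 CPM in NBC females (SD, n = 4 each; log2 change 0.07, adjusted p = 0.844).

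Among the receptors of the resting state, Gpr34, which encodes a receptor for lysophosphatidylserine, was the one that rose. It lay at 16.9, 16.4, 20.2 and 18.7 CPM in NBC, 16.3, 15.8, 19.2 and 20.3 CPM in mPIA and 24.8, 21.1, 21.6 and 26.8 CPM in sPIA females. Each sPIA female lay above each NBC and each mPIA female. Its change was 0.38 (SE 0.13, adjusted p = 0.0397), and 0.36 (adjusted p = 0.0682) without sPIA female 1. Gpr34 (GRCm38 chromosome X, 13632089 to 13640858, plus strand) lies within Cask on the opposite strand, and with the strand setting not stated their reads cannot be told apart; Cask stood at 0.12 (adjusted p = 0.239).

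Csf1r lay at 96.4, 98.3, 104 and 91.9 CPM in NBC, 107, 101, 105 and 93.5 CPM in mPIA and 142, 108, 91.4 and 118 CPM in sPIA females. The groups overlapped, and sPIA female 1 was on top (log2 change 0.23, SE 0.10, adjusted p = 0.1, and 0.12 without it). Cx3cr1, the member with the smallest mean variation within groups (coefficient of variation 6.55%, against 51.2% for C3), lay at 64.1, 65.3, 65 and 58.3 CPM in NBC, 65.2, 62, 62.1 and 65.3 CPM in mPIA and 78.1, 62.4, 64.3 and 68.6 CPM in sPIA females (log2 change 0.11, SE 0.08, adjusted p = 0.345). P2ry12 lay at 67.4, 77.7, 74.3 and 75.7 CPM in NBC, 72.8, 64.8, 71.5 and 78.6 CPM in mPIA and 87.4, 79, 77.1 and 89.1 CPM in sPIA females (log2 change 0.17, SE 0.09, adjusted p = 0.227). For P2ry12 only NBC female 2 lay above the lowest sPIA library. Csf1r overlaps Hmgxb3 on the opposite strand, which fell (-0.20, adjusted p = 0.0245). The annotated span of Cx3cr1 overlaps 6 genes on the opposite strand and 3 on its own, and whether reads were shared with them was not tested.

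Tmem119, used to tell microglia from other macrophages, lay at 20.3, 19.7, 16.8 and 15.1 CPM in NBC, 21.4, 19.6, 18.3 and 19 CPM in mPIA and 19.2, 15.4, 13.21 and 16.6 CPM in sPIA females, with overlap (log2 change -0.16, adjusted p = 0.414). P2ry13, Siglech, Fcrls and Selplg did not pass, at log2 changes of 0.08, 0.13, 0.43 and -0.29. Selplg, which encodes a selectin ligand, lay at 26.6, 16.6, 16.2 and 16.7 CPM in sPIA females and 26.5, 25.5, 23.2 and 17.8 CPM in NBC females, and without sPIA female 1 it was the only member called, and it was lower.

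No phagocytic receptor or signalling gene passed in sPIA females. Trem2, a lipid-sensing receptor gene, lay at 4.37, 3.94, 3.09 and 5.01 CPM in NBC, 4.89, 4.57, 5.75 and 2.66 CPM in mPIA and 5.09, 4.93, 3.36 and 4.38 CPM in sPIA females (log2 change 0.12, adjusted p = 0.772). Tyrobp, which encodes its adaptor, lay at 13.1, 11.32, 9.91 and 10.2 CPM in NBC, 11.6, 11.9, 11.1 and 11.1 CPM in mPIA and 16.1, 10.1, 8.4 and 9.26 CPM in sPIA females (log2 change -0.02, adjusted p = 0.948). The groups overlapped for both genes.

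Aif1, the gene of the microglial stain IBA1, lay at 3.84, 2.7, 4.11 and 2.99 CPM in NBC, 3.91, 3.08, 3.73 and 3.2 CPM in mPIA and 4.56, 1.74, 2.52 and 4.32 CPM in sPIA females (log2 change -0.06, adjusted p = 0.913). The sPIA females held both the highest and the lowest of these female values. The remaining phagocytic genes Fcer1g, Fcgr3, Inpp5d, Ly86 and Cd53 had log2 changes of 0.32, 0.18, -0.15, -0.15 and 0.26. Apbb1ip, a regulator of integrin activation, was closest to the threshold at 0.40 (SE 0.16, adjusted p = 0.0842).

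In the lysosomal group, Ctss, which encodes cathepsin S, lay at 27.4, 25.2, 27.1 and 26.7 CPM in NBC, 30.5, 33.2, 31.4 and 28.7 CPM in mPIA and 56.8, 35.5, 34.1 and 28.2 CPM in sPIA females. All sPIA and all mPIA females lay above the NBC females, which were close together, and sPIA female 1 stood far above the rest. The difference between sPIA and NBC was 0.54 (SE 0.15, adjusted p = 0.0173), with a 95% interval of 0.22 to 0.85, and 0.30 (adjusted p = 0.0822) without sPIA female 1. Per 100 CPM of Csf1r, Ctss stood at 40.1, 32.8, 37.3 and 23.9 in sPIA females and 28.4, 25.7, 26.1 and 29 in NBC females, so on that scale the groups overlapped. They overlapped on it as well for Mpeg1 (9.16 to 18.2 in sPIA and 8 to 11 in NBC females), Ctsc (10.4 to 14.4 in sPIA and 7.61 to 13 in NBC females) and Gpr34 (17.5 to 23.6 in sPIA and 16.7 to 20.4 in NBC females).

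Ctsc, which encodes cathepsin C, an activator of other proteases, lay at 8.39, 12.8, 7.9 and 7.87 CPM in NBC, 9.74, 7.77, 9.6 and 8.64 CPM in mPIA and 14.7, 13.1, 13.21 and 13.4 CPM in sPIA females. All sPIA females lay above all NBC and all mPIA females, with NBC female 2, whose choroid plexus sum was the highest of the NBC females, close below. Against NBC the difference was 0.56 (SE 0.18, adjusted p = 0.0377), and 0.52 (adjusted p = 0.0696) without sPIA female 1. It was 0.58 (adjusted p = 0.0089) with the choroid plexus level as a covariate.

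Mpeg1 lay at 10.6, 7.87, 9.2 and 9.5 CPM in NBC, 11.4, 10.7, 16 and 10.9 CPM in mPIA and 25.7, 13.6, 14.4 and 10.8 CPM in sPIA females. Neither anemic group overlapped with NBC, and sPIA female 1 was again highest. The difference between sPIA and NBC was 0.80 (SE 0.24, adjusted p = 0.0285), and 0.48 (adjusted p = 0.121) without that library. Cd68, a lysosomal membrane protein gene of phagocytes, lay at 8.51, 7.55, 8.77 and 7.09 CPM in NBC, 8.66, 8.8, 8.13 and 7.61 CPM in mPIA and 9.22, 5.17, 6.77 and 7.13 CPM in sPIA females, with overlap (log2 change -0.18, adjusted p = 0.498), and Laptm5 did not pass either (0.03, adjusted p = 0.89).

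**Figure D3:**
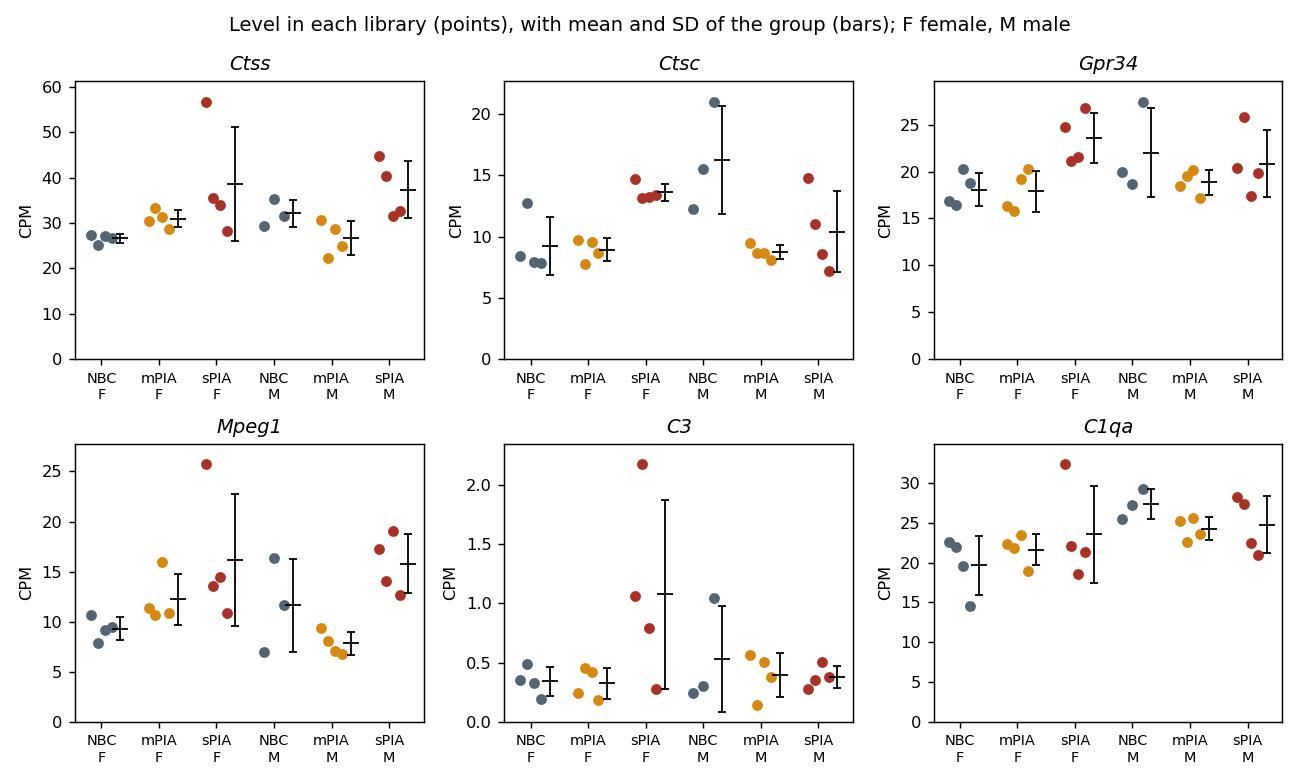
Level in CPM in each library, by group, for the 5 members called in sPIA against NBC females and for C1qa, with each group's mean and SD. sPIA female 1 is the highest library for Ctss (56.8 CPM), Mpeg1 (25.7 CPM) and C1qa (32.3 CPM), and NBC male 4 for Ctsc (21 CPM).

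The transcription factor genes did not pass. Spi1, the gene of the myeloid regulator PU.1, lay at 2.6, 2.53, 1.79 and 2.28 CPM in NBC, 2.4, 1.71, 2.83 and 3.08 CPM in mPIA and 2.81, 2.37, 2.01 and 1.96 CPM in sPIA females (log2 change -0.01, adjusted p = 0.991, 95% interval -0.55 to 0.54). Irf8, whose product partners with PU.1, lay at 3.49, 2.32, 3.3 and 3.97 CPM in NBC, 3.82, 4.46, 4.02 and 3.99 CPM in mPIA and 4.67, 2.85, 2.85 and 2.41 CPM in sPIA females (log2 change -0.03, adjusted p = 0.948, 95% interval -0.47 to 0.41). Sall1, a regulator of microglial identity, lay at 26.1, 26.1, 25.4 and 25.3 CPM in NBC, 28, 24.4, 27.2 and 23.1 CPM in mPIA and 28.9, 25.9, 26.2 and 28 CPM in sPIA females (log2 change 0.08, adjusted p = 0.668). sPIA and NBC females overlapped for all 3 genes. Olfml3, a secreted protein gene, stood at 0.38 (SE 0.14, adjusted p = 0.0661).

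The calls in sPIA females depended on which libraries entered. Leaving out NBC female 1, 2, 3 or 4 left 2, 2, 4 or 1 members called, and leaving out sPIA female 1, 2, 3 or 4 left 1, 3, 4 or 3, with Ctss called in each but the fit without sPIA female 1. Over all genes these fits called 1421 to 2705 genes, against 2472 in the main fit, with 2705 in the fit without sPIA female 1. With the trend in GC content and length removed, Ctss stood at 0.54 (adjusted p = 0.021), Csf1r at 0.31 (adjusted p = 0.0232) and C1qa at 0.49 (adjusted p = 0.0202), and no other member passed. That correction called 1136 of all genes. Markers of other cells moved too: 3 of 8 astrocyte markers rose (beside 8.12% of all genes), with sums of 6470 to 7840 CPM in sPIA females and 6000 to 6180 CPM in NBC females, and endothelial markers summed to 235 to 272 CPM in sPIA females and 210 to 226 CPM in NBC females. Their part in the results was not tested.

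**Figure D4:**
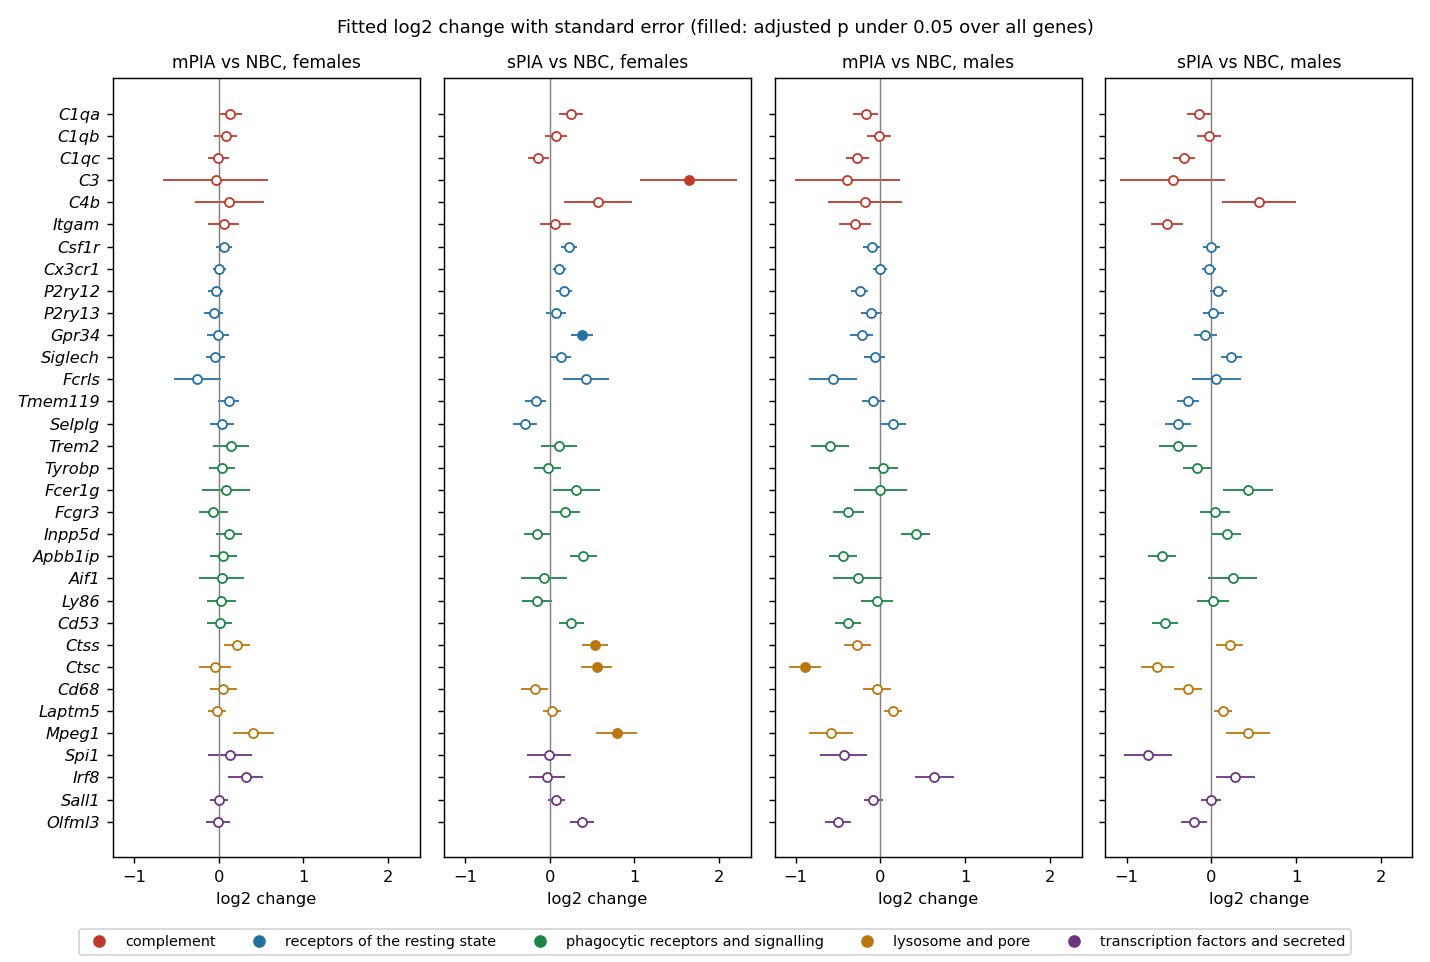
Fitted log2 change of each member with its standard error in mPIA and sPIA against NBC, in each sex, grouped and coloured by role. Filled points passed the threshold: C3, Gpr34, Ctss, Ctsc and Mpeg1 in sPIA females, all higher, and Ctsc in mPIA males, lower.

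Genes around the members were read in sPIA females too. Of 22 tested complement regulators and receptors 3 rose and 1 fell, and 0 of 12 other components passed, beside 16% of all genes called. C3ar1, which encodes the receptor for the C3a fragment, lay at 2.28, 2.61, 2.15 and 1.91 CPM in sPIA females and 1.12, 0.916, 0.92 and 1.11 CPM in NBC females, without overlap (log2 change 1.14, SE 0.32, adjusted p = 0.015). The others were the pentraxin gene Nptx1 (0.35, adjusted p = 0.0142), Cd47, whose protein inhibits engulfment (0.42, adjusted p = 0.000966), and Susd4, a complement inhibitor gene (-0.17, adjusted p = 0.0367).

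Of 9 ligands that other cells present to microglia, 1 rose and 2 fell, beside 16% of all genes called. Cx3cl1, the fractalkine gene, lay at 571, 640, 672 and 594 CPM in sPIA females and 788, 716, 746 and 717 CPM in NBC females, without overlap (log2 change -0.26, SE 0.06, adjusted p = 0.00616). Gas6, a bridging ligand for dying cells, also fell (-0.32, adjusted p = 0.0159), Tgfb2 rose (0.45, adjusted p = 0.00647), and the CSF1R ligand genes Csf1 (0.10, adjusted p = 0.595) and Il34 (-0.16, adjusted p = 0.343) did not pass. Of 30 other microglial genes 2 rose and 0 fell, below the 16% of all genes called: Maf (0.39, adjusted p = 0.00664) and Tgfbr1 (0.53, adjusted p = 0.000978).

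Of 22 genes linked to disease- or growth-associated microglia 1 rose and 2 fell, beside 16% of all genes called. They were B2m (0.38, adjusted p = 0.0176) and the cathepsin genes Ctsb (-0.26, adjusted p = 0.00606) and Ctsl (-0.19, adjusted p = 0.0457). Of 12 inflammatory genes 2 rose and 0 fell, beside the same 16%. Il1a, the interleukin-1 alpha gene, lay at 0.583, 0.725, 0.747 and 0.786 CPM in sPIA females and 0.0591, 0.108, 0 and 0.13 CPM in NBC females, without overlap and near the limit of detection (log2 change 3.19, SE 0.86, adjusted p = 0.0119), and Ptgs2 rose as well (0.58, adjusted p = 0.0359). Il1b and Tnf were below the count filter, at no more than 0.14 and 0.327 CPM in sPIA females and 0.355 and 0.13 CPM in NBC females. Mrc1 (0.31, adjusted p = 0.71), Pf4 (0.42, adjusted p = 0.61) and Ttr (-0.54, adjusted p = 0.881), markers of border macrophages and choroid plexus, did not pass.

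In males with severe anemia 0 of 33 members passed, beside 0.194% of all genes (0.084% higher, 0.11% lower). At an unadjusted p under 0.05 there were 8 members, beside 12.1% of all genes. DESeq2 and limma-voom called 0 members each, beside 155 and 24 of all genes. The median log2 change was -0.02, with 14 of 33 positive. Groups did not overlap for 6 members, beside 6.31% of all genes: Irf8 was higher, and Trem2, C1qc, Selplg, Cd53 and Apbb1ip were lower. Without NBC male 2 there were 2 calls, Ctsc and Cd53, and without sPIA male 1 there was 1, Ctsc. Over all genes these fits called 249 and 48, against 30 in the main fit.

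Of the complement genes in males, C1qa lay at 25.5, 27.3 and 29.2 CPM in NBC, 25.2, 22.5, 25.6 and 23.6 CPM in mPIA and 28.3, 27.3, 22.5 and 21 CPM in sPIA males (log2 change with sPIA -0.14, adjusted p = 0.752). C1qb lay at 24.2, 27.6 and 22.4 CPM in NBC, 25.1, 25.6, 22 and 25.2 CPM in mPIA and 27.4, 26.9, 19.1 and 23.8 CPM in sPIA males (-0.03, adjusted p = 0.959). C1qc lay at 29, 24.7 and 29.6 CPM in NBC, 26.8, 17.7, 23.3 and 24.2 CPM in mPIA and 21.9, 21.9, 21.2 and 23.4 CPM in sPIA males (-0.33, adjusted p = 0.312). For C1qc all sPIA males lay below all NBC males, and for the other chains the groups overlapped.

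C3 lay at 0.247, 0.301 and 1.05 CPM in NBC, 0.565, 0.139, 0.501 and 0.378 CPM in mPIA and 0.277, 0.354, 0.507 and 0.375 CPM in sPIA males, and NBC male 4 supplied the high value (log2 change with sPIA -0.46, adjusted p = 0.82, and 0.44 without NBC male 4). C4b lay at 7.45, 11.4 and 6.23 CPM in NBC, 10.1, 6.01, 6.73 and 6.95 CPM in mPIA and 22.4, 11.4, 5.78 and 9.96 CPM in sPIA males, with sPIA male 1 far above the others (0.56, adjusted p = 0.653). Itgam averaged 22.3 ± 2.83 CPM in sPIA males (n = 4) and 32.1 ± 8.82 CPM in NBC males (n = 3, SD; -0.52, adjusted p = 0.254). No complement gene passed.

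Of the receptors, Csf1r lay at 94.9, 109 and 104 CPM in NBC, 101, 81.2, 101 and 98.6 CPM in mPIA and 98.1, 114, 92.1 and 106 CPM in sPIA males (log2 change with sPIA 0.00, adjusted p = 0.999, 95% interval -0.21 to 0.21). Cx3cr1 lay at 60.2, 61.4 and 64.8 CPM in NBC, 65.7, 64.8, 57.3 and 60.2 CPM in mPIA and 55.3, 67.9, 55.8 and 65.6 CPM in sPIA males (-0.02, adjusted p = 0.935, 95% interval -0.19 to 0.14). sPIA and NBC males overlapped for both. P2ry12 lay at 79.2, 83.6 and 84.9 CPM in NBC, 66, 66.2, 76.5 and 70.1 CPM in mPIA and 96.6, 104, 67.6 and 80.8 CPM in sPIA males (0.08, adjusted p = 0.798), where the mPIA males lay below all NBC males and the sPIA males spread across both groups. Tmem119 lay at 19.2, 16.7 and 19.3 CPM in NBC, 19.2, 16, 17 and 17.3 CPM in mPIA and 17.8, 13.8, 12.4 and 16.9 CPM in sPIA males (-0.27, adjusted p = 0.403), and Gpr34 at 19.9, 18.6 and 27.5 CPM in NBC, 18.5, 19.5, 20.2 and 17.2 CPM in mPIA and 20.4, 25.8, 17.4 and 19.9 CPM in sPIA males (-0.07, adjusted p = 0.871). Both overlapped between sPIA and NBC males.

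Trem2 lay at 4.54, 5.5 and 5.08 CPM in NBC, 3.75, 2.54, 3.63 and 3.4 CPM in mPIA and 4.19, 3.24, 4.31 and 3.59 CPM in sPIA males, and each anemic male lay below each NBC male (log2 change -0.40, adjusted p = 0.494 with sPIA, and -0.60, adjusted p = 0.178 with mPIA). Tyrobp lay at 9.13, 11.26 and 7.95 CPM in NBC, 9.56, 9.05, 9.61 and 10.54 CPM in mPIA and 9.82, 8.35, 8.21 and 7.44 CPM in sPIA males (-0.16, adjusted p = 0.749 with sPIA). Aif1 lay at 2.76, 4.37 and 3.19 CPM in NBC, 3.03, 2.31, 3.97 and 2.13 CPM in mPIA and 5.02, 2.88, 5.07 and 3.48 CPM in sPIA males (0.25, adjusted p = 0.773 with sPIA). Tyrobp and Aif1 overlapped between sPIA and NBC males.

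Of the lysosomal genes, Ctss lay at 29.4, 35.3 and 31.6 CPM in NBC, 30.7, 22.4, 28.7 and 24.9 CPM in mPIA and 44.7, 40.5, 31.6 and 32.7 CPM in sPIA males (log2 change with sPIA 0.22, adjusted p = 0.636). Mpeg1 lay at 6.96, 16.3 and 11.6 CPM in NBC, 9.4, 8.04, 7.06 and 6.76 CPM in mPIA and 17.3, 14.1, 19.1 and 12.6 CPM in sPIA males (0.43, adjusted p = 0.528). For both, each sPIA male lay above each mPIA male, and sPIA and NBC males overlapped. Ctsc lay at 12.2, 15.52 and 21 CPM in NBC, 9.51, 8.69, 8.69 and 8.13 CPM in mPIA and 14.79, 11, 8.61 and 7.23 CPM in sPIA males, with its highest value in NBC male 4 (log2 change -0.64, SE 0.19, adjusted p = 0.155 with sPIA). Cd68 lay at 8.63, 9.11 and 7.69 CPM in NBC, 7.81, 9.98, 8.02 and 7.19 CPM in mPIA and 7.51, 8.15, 5.47 and 6.91 CPM in sPIA males (-0.28, adjusted p = 0.536).

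The transcription factor genes had low counts in males as well. Spi1 lay at 3.8, 2.64 and 2.09 CPM in NBC, 2.42, 2.31, 1.55 and 2.17 CPM in mPIA and 1.11, 1.47, 2.33 and 1.87 CPM in sPIA males (log2 change with sPIA -0.75, adjusted p = 0.271). Irf8 lay at 3.21, 3.05 and 2.04 CPM in NBC, 4.98, 4.48, 3.55 and 4.3 CPM in mPIA and 3.46, 3.44, 3.34 and 3.27 CPM in sPIA males (0.28, adjusted p = 0.663). Each anemic male lay above each NBC male for Irf8. Sall1 lay at 31.3, 27.8 and 27.4 CPM in NBC, 28.7, 25, 28.3 and 26.9 CPM in mPIA and 24.4, 36.1, 31.3 and 23.2 CPM in sPIA males (0.00, adjusted p = 0.995), with overlap.

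The other members are given by their range over all 23 libraries, with the log2 change in sPIA against NBC males. P2ry13, a second ADP receptor gene, ranged over 16.3 to 25.4 CPM (0.02, adjusted p = 0.965), Siglech over 9.79 to 16 CPM (0.24, adjusted p = 0.463) and Fcrls over 9.62 to 41.3 CPM (0.06, adjusted p = 0.956). Fcer1g, the shared signalling chain of Fc receptors, ranged over 2.17 to 6.63 CPM (0.44, adjusted p = 0.596), the Fc receptor gene Fcgr3 over 6.06 to 12.1 CPM (0.05, adjusted p = 0.943) and Ly86 over 7.39 to 15.2 CPM (0.02, adjusted p = 0.982). Laptm5 ranged over 23.1 to 32.4 CPM (0.14, adjusted p = 0.656), Inpp5d over 7.83 to 16.6 CPM (0.18, adjusted p = 0.717), Cd53 over 6.74 to 15.9 CPM (-0.54, adjusted p = 0.141) and Selplg over 14.4 to 28.2 CPM (-0.39, adjusted p = 0.29). None of these passed in sPIA males.

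Outside the members, 1 of 30 other microglial genes passed in sPIA males, beside 0.194% of all genes. Ltc4s, the leukotriene C4 synthase gene, fell to 0.277, 0.658, 0.659 and 0.696 CPM in sPIA males, against 1.43, 2.3 and 3.87 CPM in the NBC group (log2 change -2.14, SE 0.39, adjusted p = 0.0114). Cx3cl1 (0.02, adjusted p = 0.937), C3ar1 (-0.15, adjusted p = 0.903), Csf1 (0.13, adjusted p = 0.704), Il34 (-0.02, adjusted p = 0.97), Mrc1 (-0.08, adjusted p = 0.966), Pf4 (-0.81, adjusted p = 0.52) and Ttr (-5.08, adjusted p = 0.344) did not pass. Log2 changes were negative for 9 of 10 border macrophage, 11 of 12 meningeal fibroblast and 12 of 12 choroid plexus markers, and their part in the members' values was not tested.

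In females with moderate anemia 0 of 33 members passed, beside 0.00646% of all genes (1 gene, higher; 0% lower). At an unadjusted p under 0.05 there were 0 members, beside 0.355% of all genes. DESeq2 and limma-voom called 0 members each, beside 1 and 0 of all genes. The median log2 change was 0.04, with 21 of 33 positive, and it ran from -0.25 to 0.41 over the members. Ctss and Mpeg1 were higher in all mPIA females than in any NBC female, 2 of 33, beside 1.54% of all genes.

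Each member called in sPIA females had adjusted p = 1 in mPIA females. Ctss stood at 0.22 (95% interval -0.09 to 0.53) and Mpeg1 at 0.41 (-0.10 to 0.91). Ctsc stood at -0.05 (-0.43 to 0.33), Gpr34 at -0.01 (-0.27 to 0.25) and C3 at -0.04 (-1.31 to 1.24). The sPIA and mPIA females are set against the same NBC libraries. Cx3cl1 (0.01), C3ar1 (0.27), Csf1 (0.02), Il34 (-0.03), Mrc1 (-0.10), Pf4 (0.27) and Ttr (-2.27) did not pass.

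In males with moderate anemia 1 member passed, beside 0.653% of all genes (0.155% higher, 0.498% lower). Ctsc fell to 8.75 ± 0.567 CPM in mPIA males (n = 4), against 16.3 ± 4.45 CPM in NBC males (SD, n = 3), which came to -0.89 (SE 0.19, adjusted p = 0.0253) on the log2 scale. Only the fit without NBC male 2 kept that call among the 7 that each omitted a library, and there Cd53 and Mpeg1 passed too. That fit called 1124 of all genes and the others 0 to 40, against 101 in the main fit. Without NBC male 4 the change of Ctsc was -0.68 (adjusted p = 0.258). Once the choroid plexus level was a covariate, 0 members and 0 of all genes passed.

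Log2 changes were negative for 27 of 33 members in mPIA males, with a median of -0.18, beside 0.01 over all genes, and -0.13 without NBC male 4. All 6 complement genes were negative, with a median of -0.23 and 0 calls. Groups did not overlap for 7 members, beside 9.8% of all genes. Irf8 (0.64, adjusted p = 0.159) and Inpp5d, the gene of the phosphatase SHIP1 (0.42, adjusted p = 0.211), were higher, and P2ry12 (-0.24, adjusted p = 0.218), Olfml3 (-0.50, adjusted p = 0.0916), Trem2, Ctsc and Fcrls were lower.

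Markers of tissue around the hippocampus were lower in mPIA males as well. Choroid plexus markers summed to 17.9 to 52 CPM in mPIA males and 20.5, 2650 and 4710 CPM in NBC males, and border macrophage markers to 15.9 to 32.6 CPM in mPIA males and 34.4 to 59 CPM in NBC males. Pf4, a border macrophage marker, fell to 0.206, 0.0462, 0.376 and 0.189 CPM in mPIA males, against 0.543, 1.09 and 1.26 CPM in NBC males (log2 change -2.19, SE 0.53, adjusted p = 0.0472). The choroid plexus marker F5 (-3.72, adjusted p = 0.047) also fell. The part of these markers in the members' values was not tested. Of 22 genes linked to disease- or growth-associated microglia 0 rose and 1 fell, Cd63 (-0.48, adjusted p = 0.0402), beside 0.653% of all genes called. Cx3cl1 (0.27, adjusted p = 0.0604), C3ar1 (-0.38, adjusted p = 0.611), Csf1 (-0.01, adjusted p = 0.98), Il34 (-0.03, adjusted p = 0.914), Mrc1 (-1.22, adjusted p = 0.207) and Ttr (-7.20, adjusted p = 0.141) did not pass.

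Severe was then set against moderate anemia. In females 3 members rose and 0 fell, beside 16.1% of all genes called (8.67% higher, 7.48% lower): C3 by 1.68 (SE 0.55, adjusted p = 0.0363), Ctsc by 0.60 (SE 0.18, adjusted p = 0.0227) and Gpr34 by 0.39 (SE 0.13, adjusted p = 0.0314). Groups did not overlap for 5 members, Ctsc, Gpr34, Olfml3, Cd53 and Apbb1ip, all higher, beside 24.3% of all genes. The calls numbered 0 without mPIA female 2, 1 without mPIA female 1, 5 without sPIA female 3, and 1, C3, with the GC and length trend removed. Over all genes these fits called 1792, 1582, 1673 and 1322, against 2499 in the main fit. Without sPIA female 1, C3 and Ctsc were called higher and Tmem119 and Selplg lower, beside 2769 of all genes. Gpr34 then stood at 0.37 (adjusted p = 0.06), and the members' median log2 change was 0.03, against 0.12 with all libraries. C3 stood at 1.09 (adjusted p = 0.22) without sPIA female 2, at 1.34 (adjusted p = 0.0719) with the choroid plexus level as a covariate and at 1.38 (adjusted p = 0.0876) in limma-voom. Log2 changes were positive for 12 of 12 choroid plexus markers, with 0 called, and 8 of 8 astrocyte markers, with 2 called. Cd47 (0.48, adjusted p = 0.00021) and B2m (0.35, adjusted p = 0.0275) were higher and Cx3cl1 (-0.27, adjusted p = 0.00404) was lower in sPIA females than in mPIA females. Of 22 tested complement regulators and receptors 2 rose and 1 fell, and of 9 ligands 1 rose and 2 fell. Of 22 disease- or growth-associated genes 1 rose and 1 fell, and of 30 other microglial and 12 inflammatory genes 2 each rose and 0 fell. The other called genes of these lists are not named.

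In males P2ry12 (log2 change 0.32, SE 0.09, adjusted p = 0.0408) and Mpeg1 (log2 change 1.02, SE 0.24, adjusted p = 0.0223) rose and Selplg fell, beside 4.92% of all genes called (2.13% higher, 2.8% lower). Selplg lay at 14.84, 16.1, 14.4 and 17.9 CPM in sPIA males and 28.2, 19.2, 23.4 and 21.8 CPM in mPIA males, without overlap (log2 change -0.55, SE 0.14, adjusted p = 0.0287). Groups did not overlap for 5 members, beside 10.6% of all genes: Ctss, Fcgr3 and Mpeg1 were higher, and Selplg and Irf8 were lower. The calls numbered 0 without mPIA male 4 or sPIA male 1, 1 without mPIA male 1 or sPIA male 2, and 5 without sPIA male 4. Over all genes the counts in these fits were 355, 302, 229, 306 and 1341, against 762 in the main fit. With the GC and length trend removed, Selplg alone passed, beside 244 of all genes. Med12l, which overlaps P2ry12, stood at -0.04 (adjusted p = 0.851). All 10 tested border macrophage markers had positive log2 changes here, with 0 called, as did 12 of 12 meningeal fibroblast markers and 10 of 12 choroid plexus markers, and their part was not tested. Cd47 (0.36, adjusted p = 0.0116) and B2m (0.66, adjusted p = 0.0021) were higher and Cx3cl1 (-0.25, adjusted p = 0.0252) was lower in sPIA males than in mPIA males. Of 22 tested complement regulators and receptors 1 rose and 2 fell, and of 9 ligands 1 rose and 1 fell. Of 22 disease- or growth-associated genes 1 rose and 0 fell, and of 30 other microglial genes 0 rose and 2 fell. Of 12 other complement components 1 rose and 0 fell. Not all called genes of these lists are named.

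Whether the effect of anemia differed between the sexes was tested as a difference of differences. For sPIA against NBC 2 members differed, both with the higher effect in females, beside 0.95% of all genes (0.601% higher, 0.349% lower). For Ctsc the difference was 1.19 (SE 0.27, adjusted p = 0.0315), with a 95% interval of 0.65 to 1.74, from 0.56 in females and -0.64 in males. For Apbb1ip it was 0.98 (SE 0.23, adjusted p = 0.037), from 0.40 in females and -0.58 in males. NBC females against NBC males stood at -0.81 for Ctsc and -0.53 for Apbb1ip, and that gap is part of the difference. Kind of code and group cannot be told apart in it either. For markers of other cells, the difference was positive for 12 of 12 choroid plexus markers (median 3.96), 12 of 12 meningeal fibroblast markers (median 0.80), 7 of 10 border macrophage markers and 8 of 8 astrocyte markers, of which 1, Sox9, was called. With the choroid plexus level as a covariate, Ctsc stood at 0.89 (adjusted p = 0.0755) and Apbb1ip at 1.11 (adjusted p = 0.0442). The part of the other markers was not tested.

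Apbb1ip lay at 8.64, 7.25, 9.24 and 8.19 CPM in sPIA females and 6.85, 5.66, 7.63 and 5.08 CPM in NBC females. It lay at 5.48, 7.39, 5.62 and 5.89 CPM in sPIA males and 10.46, 7.5 and 9.52 CPM in NBC males. The groups overlapped in females, and in males all sPIA libraries lay below all NBC libraries. Cd53 (0.80, adjusted p = 0.0622) and C3 (2.10, adjusted p = 0.209) did not pass. Leaving out NBC male 4, NBC female 1, NBC female 4, sPIA male 4 or sPIA female 3 left 0 calls, and leaving out NBC female 2 or NBC female 3 left 1. Over all genes the fits left with 0 called 5 to 108, those left with 1 called 126 and 79, and the main fit called 147. For mPIA against NBC 0 members differed between the sexes, beside 0% of all genes, and DESeq2 and limma-voom called 0 members each. At an unadjusted p under 0.05 there were 6 members, beside 7.13% of all genes.

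Among NBC animals 5 members were lower in females than in males and 0 were higher, beside 10.1% of all genes called (4.66% higher, 5.49% lower). They were C1qa (-0.47, adjusted p = 0.0434), Ctsc (-0.81, adjusted p = 0.0108), Olfml3 (-0.53, adjusted p = 0.0259), Cd53 (-0.51, adjusted p = 0.035) and Apbb1ip (-0.53, adjusted p = 0.0412). Olfml3 lay at 17, 15.7, 17.3 and 10.3 CPM in NBC females and 21.7, 20.7 and 23.2 CPM in NBC males, without overlap. Groups did not overlap for 7 members, beside 20.6% of all genes: Inpp5d was higher, and P2ry12, C1qa, Ctss, Sall1, Olfml3 and Cd53 were lower. Without NBC male 4 the calls numbered 0, and Ctsc stood at -0.59 (adjusted p = 0.107). They numbered 2 without NBC female 1 and 1 without NBC female 4. Over all genes the fits without NBC male 4, NBC female 1 and NBC female 4 called 440, 589 and 1139, against 1570 in the main fit. Log2 changes were also negative for all 8 astrocyte markers, with 3 called, 12 of 12 meningeal fibroblast markers (median -0.93), with 2 called, 12 of 12 choroid plexus markers (median -2.33) and 9 of 10 border macrophage markers. With the choroid plexus level as a covariate 2 members were called, Ctsc and Apbb1ip, and the members' median log2 change was -0.04, against -0.15 without it. The part of the other markers was not tested.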

How the data were processed

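The authors deposited whole-number read counts per gene, not normalized, in 1 table of 24421 rows, and each column matched 1 of 23 libraries by name (0 left over). Per the submitters' processing notes, FastQC, TopHat2 2.0.13, Subread and edgeR were used with build mm10, and per the labels' protocols libraries followed an Illumina TruSeq protocol. Which annotation and strand setting were used, and how multiply mapping reads were counted, is not stated, so overlapping or near-identical genes are uncertain. Positions are from GENCODE M21 (GRCm38), whose symbols matched 23350 rows (95.6%), and promoters from RefSeq (GRCm38.p6).

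Groups came from the labels. No pair of replicates agreed within sampling noise (chi-square over its degrees of freedom was 3.09 to 31.3). Nothing says how replicates were raised, so p-values measure only the spread between these samples.

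All 23 libraries entered 1 edgeR quasi-likelihood fit (robust, TMM, 6 group means) after filterByExpr (minimum count 10, minimum total 15). P-values were adjusted by Benjamini-Hochberg over 15475 genes in each of 9 comparisons, with a threshold of 0.05. CPM uses TMM library sizes, intervals are 95%, and each SE belongs to its log2 change. The test was also run on counts simulated from its own model, with the same spread for a gene in every group. That run cannot show how the test behaves where groups differ in spread. Alternatives were other scalings, no count filter, DESeq2, limma-voom, the compared groups alone, a replicate block, a choroid plexus score, removal of a GC and length trend (splines with 4 degrees of freedom), a block of code prefixes and leaving out each library.

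The members and other gene lists were chosen with earlier results of these data known. Each library's value is printed for C1qa, C1qb, C1qc, C3, C4b, Csf1r, Cx3cr1, P2ry12, Trem2, Tyrobp, Spi1, Irf8, Sall1, Tmem119, Aif1 and Cd68 and for members called in anemia against NBC. Of the other lists up to 4 called genes are named, by smallest p, with Csf1, Il34, Cx3cl1, C3ar1, Il1b, Tnf, Mrc1, Pf4 and Ttr; 1 further gene of that rule is not reported here. Other members were named after their values were seen.

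The tools were edgeR 4.0.16, limma 3.58.1 and DESeq2 1.42.0 in R 4.3.3, with figures by matplotlib 3.10.9 under Python 3.11.15.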

Additional observations from a re-analysis of the deposited data

Results flagged for a closer look

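In 9 of 165 pairs of a member and a group of 4 libraries, 1 library lay far from the other 3 by Dixon's test, where chance at 1 in 20 gives 8.2. These were Selplg at 26.6 CPM in sPIA female 1 (next 16.7), Olfml3 at 16.9 CPM in sPIA female 3 (next 20.4), Mpeg1 at 16 CPM in mPIA female 3 (next 11.4), Ctsc at 12.8 CPM in NBC female 2 (next 8.39), Cx3cr1 at 58.3 CPM in NBC female 4 (next 64.1), Laptm5 at 29.6 CPM in NBC female 1 (next 25.4), Itgam at 26.5 CPM in sPIA male 2 (next 21.1), Csf1r at 81.2 CPM in mPIA male 2 (next 98.6) and C1qb at 22 CPM in mPIA male 3 (next 25.1). The effect of sPIA differed between females and males for Ctsc, by 1.19 on the log2 scale (adjusted p = 0.0315), and for Apbb1ip, by 0.98 (adjusted p = 0.037, edgeR's quasi-likelihood test of the difference).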

How the results depend on the processing

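A change of sign was counted only where a call was involved or the main log2 change exceeded its SE. Smaller changes that switched sign, such as that of C1qb in sPIA against NBC females, stayed among the unchanged. Of the single members' log2 changes, 866 were unchanged by that rule under an alternative, 128 lost their call, 6 gained one and 3 changed sign. The 3 were Tmem119 (0.0492) and C1qc (0.0728) in sPIA against NBC females with the GC and length trend removed, and C1qa (0.0182) in mPIA against NBC males with a choroid plexus score among the covariates. In sPIA against NBC females, limma-voom called 2 members, a fit of the compared groups alone 3 and the GC and length correction 3. Over all genes they called 2351, 2712 and 1136. In mPIA against NBC males, DESeq2 called 2, and limma-voom, the compared groups alone and the choroid plexus covariate called 0 each. Their counts over all genes were 381, 24, 1 and 0. The GC and length correction called 1 in sPIA against mPIA, in females and in males, beside 1322 and 244 of all genes. For the sex difference with sPIA, the compared groups alone called 0, and the choroid plexus covariate and the GC and length correction called 1 each. All-gene counts there were 5, 26 and 49. Between NBC females and males, limma-voom called 3, the compared groups alone 1, the choroid plexus covariate 2 and the GC and length correction 3, and the median log2 change was -0.044 with the covariate and -0.236 with the correction. Of all genes, these fits called 1443, 668, 703 and 575. The causes were not tested.

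Leaving out 1 library gave 1 to 4 called members in sPIA against NBC females, 0 to 2 in sPIA against NBC males, 0 in mPIA against NBC females, 0 to 3 in mPIA against NBC males, 0 to 5 in sPIA against mPIA in each sex, 0 to 3 for the sex difference with sPIA, 0 for that with mPIA and 0 to 5 between NBC females and males. All-gene counts in the same order ran over 1421 to 2705, 4 to 249, 0 to 1 and 0 to 1124 against NBC. In sPIA against mPIA they ran over 1582 to 2769 in females and 229 to 1341 in males. For the sex differences they ran over 5 to 327 with sPIA and 0 to 69 with mPIA, and between NBC sexes over 440 to 2152. The deviations of same-numbered libraries correlated at -0.172 to 0.149 over genes. Same-numbered mPIA and NBC females share the first part of their code, and correlated at 0.108, 0.036, 0.116 and 0.149. Whether they were raised together is not stated. With a block of that code part, 0 members were called in mPIA against NBC females, beside 6 of 14680 genes. With a replicate block, 4 members were called in sPIA against NBC females, 1 for the sex difference with sPIA and 3 between NBC females and males. That block called 2378, 93 and 1180 of all genes there. C3 is limited by depth, with 3 to 45 counts a library.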

Other observations

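Masp2, a protease gene of the lectin pathway of complement, and Slc2a5, a microglial fructose transporter gene, were split within the sPIA females. Masp2 lay at 0.636, 2.95, 0.233 and 3.09 CPM in sPIA females 1 to 4, at 2.03 to 5.52 CPM in sPIA males, at 0.571 to 0.725 CPM in mPIA females, at 0.426 to 0.627 CPM in mPIA males, at 0.377 to 0.92 CPM in NBC females and at 0.0523 to 0.987 CPM in NBC males. Slc2a5 lay at 4.19, 1.4, 4.43 and 1.4 CPM in sPIA females 1 to 4, at 0.857 to 1.01 CPM in sPIA males, at 3.66 to 4.5 CPM in mPIA females, at 2.98 to 5.77 CPM in mPIA males, at 2.67 to 4.55 CPM in NBC females and at 2.15 to 4.09 CPM in NBC males. sPIA females 2 and 4 were high in Masp2 and low in Slc2a5. In males sPIA differed from mPIA for both, with Masp2 higher (log2 change 2.76, adjusted p = 0.00887) and Slc2a5 lower (log2 change -2.32, adjusted p = 0.000364, edgeR's quasi-likelihood test). Both genes were singled out after their values were seen, and the split was not tested.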
